A study of Homo sapiens with 24 samples.

Results

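The genes described here are NRK, ADAM28, SLCO2B1, VAV3, FOLR1 and RPSAP47, 6 of the 60675 genes in the count tables. They were chosen by their measured levels in the ACHN libraries, which go from over 10 CPM (read counts scaled to library size) in 1 group to near absence in another. That choice used the ACHN libraries, so the ACHN levels of these genes are given below as a description and were not tested. The HK-2 libraries were not used in the choice, and the genes were tested there.

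ACHN is a human renal carcinoma cell line, labelled ccRCC in the sample descriptions, and HK-2 is an immortalised line of human kidney tubule cells. Each line was infected with lentiviral hairpins and sequenced in 4 groups of 3 replicates, 24 libraries of total RNA in all. The groups are cells with a control hairpin (shNC), cells with a hairpin against KDM5C (shKDM5C), cells with a hairpin against YY1 (shYY1) and cells carrying hairpins against both genes (Dsh). In the study's methods the Dsh cells were derived by infecting YY1-depleted cells with a KDM5C hairpin on a vector that also marks cells green, and infected cells were selected with puromycin. Which of the tested hairpins against each gene was sequenced is not given in the labels. The labels do not say that the replicates came from separate cultures, so the spread between them, and every p-value resting on it, may be technical.

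KDM5C is an X-linked demethylase that takes methyl groups off histone H3, and YY1 is a zinc finger transcription factor that both activates and represses genes. Of the genes described, NRK encodes a protein kinase known to feed into JNK signalling, and VAV3 encodes a guanine nucleotide exchange factor that acts downstream of receptor tyrosine kinases. ADAM28 encodes a membrane protease of the disintegrin family best known from lymphocytes. SLCO2B1 and FOLR1 act in uptake at the cell surface: the SLCO2B1 protein is an organic anion transporter, and FOLR1 is the folate receptor with which the proximal tubule recovers folate from the filtrate. RPSAP47 encodes no known protein. It is a processed pseudogene, a copy of the spliced transcript of the ribosomal protein gene RPSA, and short reads from such a copy and its parent are hard to tell apart.

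Depth was between 17910371 and 24272298 counted read pairs per library in ACHN cells and between 15926561 and 18755684 in HK-2 cells. A library with no count for a gene allows up to 3 counts, which is 0.121 to 0.214 CPM at these depths, and all intervals and floors below cover counting error only. KDM5C itself was at 69.5 ± 0.539 CPM in ACHN shNC and at 42.1 ± 1.22 in shKDM5C, 89.0 ± 2.51 in shYY1 and 40.1 ± 0.515 in Dsh libraries (SD, n = 3 each). YY1 was at 136.6 ± 3.91, 143.1 ± 4.90, 75.4 ± 3.32 and 95.9 ± 6.70 CPM in the same order, so that YY1 was lower in shYY1 than in Dsh libraries. In HK-2 cells, KDM5C was at 193.6 ± 2.88 CPM in shNC, 57.7 ± 17.6 in shKDM5C, 246.3 ± 13.7 in shYY1 and 68.8 ± 3.24 in Dsh libraries. YY1 was at 210.7 ± 6.88 in shNC, 239.4 ± 30.8 in shKDM5C, 64.7 ± 3.51 in shYY1 and 74.9 ± 1.55 in Dsh libraries there. The HK-2 shKDM5C replicate 1 stood apart: its correlation with the other replicates of its group across genes was 0.961 and 0.962, against 0.994 between those, and HK-2 shKDM5C results are given with and without it. Without it, KDM5C was at 67.9 CPM in HK-2 shKDM5C. Of 7 renal epithelial markers, PAX8, KRT8 and KRT18 were high in both lines. CDH1 was at 47.1, 5.53, 41.6 and 5.22 CPM in ACHN shNC, shKDM5C, shYY1 and Dsh, and at 0.450 to 3.91 in HK-2 groups. PAX2 was at 5.27 to 82.1 CPM in ACHN and 1.84 to 26.9 in HK-2 groups. EPCAM was at 8.40 to 21.7 and 32.7 to 66.1, and CDH16 at 7.50 to 24.2 and 50.6 to 94.0. The mesenchymal markers VIM and CDH2 were at 437 to 1004 and 168 to 251 CPM over all groups. Of 3 markers of clear cell renal cancer, CA9 was at or below 0.123 CPM in ACHN cells. NDUFA4L2 was at 0.684 to 1.44 CPM there and VEGFA at 54.9 to 117. Of 5 proximal tubule markers, LRP2, CUBN, SLC34A1 and AQP1 were under 1 CPM in every group of both lines, and GGT1 was at 69.5 to 122 CPM in ACHN and 150 to 286 CPM in HK-2 groups. The summed level of 3 immune markers did not exceed 0.413 CPM in any library, and that of 2 endothelial markers did not exceed 1.71 CPM. Of 4 fibroblast markers, COL1A1 was high in ACHN shNC libraries (574 CPM on average) and lower in the other ACHN groups, PDGFRB was at 31.2, 25.8, 34.2 and 7.57 CPM in ACHN shNC, shKDM5C, shYY1 and Dsh, while COL1A2 and DCN were under 0.5 CPM in all groups but HK-2 Dsh, where DCN was at 7.31. The part of these markers in the results below was not tested, and in bulk RNA fewer expressing cells and less RNA per cell cannot be told apart.

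The genes lie at separate places in the genome (GRCh38, Ensembl release 84). NRK (ENSG00000123572) spans positions 105822543 to 105958610 of chromosome X, and VAV3 (ENSG00000134215) spans 107571160 to 107965144 of chromosome 1 on the minus strand. FOLR1 (ENSG00000110195) at 72189558 to 72196301 and SLCO2B1 (ENSG00000137491) at 75100563 to 75206549 share chromosome 11, with 2.90 Mb between them. All of the genes but VAV3 are on the plus strand.

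The RefSeq promoter table (GRCh38.p14) held entries for 3 of the 6 genes, NRK, VAV3 and SLCO2B1, the last with 2 start sites. Both SLCO2B1 start sites and that of VAV3 lie inside the gene bodies given above. Only the NRK start site lies at the start of its gene body. The stretch from 250 to 61 bases before each start is shown because the ACHN shYY1 group is the lowest or highest for each of these 3 genes, with each CpG dinucleotide in capitals. None of these windows overlaps an annotated exon.
NRK, chrX:105822289-105822478, plus strand: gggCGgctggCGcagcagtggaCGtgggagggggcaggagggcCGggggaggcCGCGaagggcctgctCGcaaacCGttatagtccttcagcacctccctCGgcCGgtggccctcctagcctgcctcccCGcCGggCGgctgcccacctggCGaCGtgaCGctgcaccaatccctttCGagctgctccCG
SLCO2B1, chr11:75150857-75151046, plus strand: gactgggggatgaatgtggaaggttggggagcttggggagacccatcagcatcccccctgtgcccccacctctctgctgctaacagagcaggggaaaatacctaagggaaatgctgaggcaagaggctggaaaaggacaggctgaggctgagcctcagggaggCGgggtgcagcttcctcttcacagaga
SLCO2B1, chr11:75159582-75159771, plus strand: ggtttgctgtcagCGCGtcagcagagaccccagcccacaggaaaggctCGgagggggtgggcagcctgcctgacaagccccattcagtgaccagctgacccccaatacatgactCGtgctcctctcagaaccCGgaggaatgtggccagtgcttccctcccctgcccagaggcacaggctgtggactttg
VAV3, chr1:107688560-107688749, minus strand: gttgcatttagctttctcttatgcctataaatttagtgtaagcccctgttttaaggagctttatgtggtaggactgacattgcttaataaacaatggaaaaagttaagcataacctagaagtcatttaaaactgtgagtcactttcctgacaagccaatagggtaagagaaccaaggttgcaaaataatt
The NRK window held 18 CpG and the VAV3 window held 0, beside a median of 7 over the 35116 windows of the same length in the table. The SLCO2B1 windows held 1 and 5. As the capitals show, only the NRK window is dense in CpG: 80.6% of all windows hold no more than it does, against 9.4% for VAV3. The letters of the YY1 core motif, GCCAT, searched on both strands, occurred in none of these 4 windows, while 24.2% of all windows held them, and the longer GCCATNTT, which contains the core, occurred in 3.2%. This says only that these letters are not in these windows.

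NRK was abundant in ACHN cells except in the shYY1 group. It was counted 1285, 1314 and 1298 times in the shNC libraries, 1310, 1167 and 1314 times in shKDM5C, 1, 3 and 3 times in shYY1 and 1527, 1587 and 1889 times in Dsh. The shYY1 libraries did not overlap the 9 others, and the Dsh libraries, which also carry a YY1 hairpin, were the highest. Group means were 68.3 ± 1.91 CPM in shNC, 67.8 ± 3.50 in shKDM5C, 0.125 ± 0.0633 in shYY1 and 80.2 ± 5.57 in Dsh libraries (SD, n = 3). Next to each other in this order, shNC and shKDM5C differed by less than their spread. The summed counts in Dsh were 640 times those in shYY1 libraries (95% counting interval 311 to 1593, scaled to library size).

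VAV3 was also lowest in the ACHN shYY1 group, but unlike NRK it was reduced in the Dsh libraries. Its counts were 388, 448 and 435 in shNC, 271, 254 and 246 in shKDM5C, 6, 15 and 6 in shYY1 and 116, 117 and 116 in Dsh libraries. No 2 groups overlapped, and the order was shNC, shKDM5C, Dsh and shYY1 from high to low. On the CPM scale the means were 22.3 ± 2.04, 13.8 ± 0.558, 5.66 ± 0.880 and 0.479 ± 0.274 in that order (SD, n = 3). Of the 6 genes VAV3 spans the smallest range, with shNC counts 46.3 times those of shYY1 (interval 31.7 to 70.6), and its lowest mean is just inside the limit of 0.5 CPM. BGN, the next gene above that limit, had a lowest group mean of 0.521 CPM.

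ADAM28 (ENSG00000042980) spans positions 24294040 to 24359018 of chromosome 8. It was abundant in ACHN shYY1 cells and low in the other groups. Its counts were 32, 19 and 23 in shNC, 4, 2 and 3 in shKDM5C, 1295, 1238 and 1217 in shYY1 and 1, 3 and 0 in Dsh libraries. All shYY1 libraries were at 1217 counts or more and no other ACHN library was above 32. The shYY1 mean was 66.7 ± 1.04 CPM (SD, n = 3), against 1.29 in shNC, 0.160 in shKDM5C and 0.0715 in Dsh. The shYY1 counts were 51.5 times those of shNC (interval 40.9 to 65.7) and 1046 times those of Dsh (408 to 3843). Below the shYY1 libraries, shNC was separate from the others, at 8.05 times the shKDM5C counts (4.02 to 18.3), while shKDM5C and Dsh libraries overlapped.

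SLCO2B1, the organic anion transporter, followed the same order as ADAM28. It was counted 11, 11 and 9 times in shNC, 7, 8 and 10 times in shKDM5C, 759, 797 and 674 times in shYY1 and 3, 1 and 5 times in Dsh libraries. Only the shYY1 libraries were high, and the shNC and shKDM5C libraries overlapped. The mean was 39.6 ± 2.64 CPM in shYY1 (SD, n = 3) and between 0.136 and 0.543 CPM in the other groups. The ratio of shYY1 to shNC counts was 73.1 (interval 51.3 to 108) and that of shYY1 to Dsh counts was 277 (145 to 606).

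FOLR1 was high in ACHN shNC cells alone and low under each hairpin. The counts were 531, 474 and 445 in shNC, 30, 33 and 25 in shKDM5C, 15, 3 and 8 in shYY1 and 3, 1 and 4 in Dsh libraries. The shNC libraries did not overlap any other, nor did shKDM5C, while shYY1 and Dsh overlapped. The means were 25.4 ± 1.84, 1.58 ± 0.232, 0.461 ± 0.313 and 0.123 ± 0.0594 CPM (SD, n = 3). Counts in shNC were 16.1 times those in shKDM5C, 54.9 times those in shYY1 (interval 37.3 to 84.3) and 199 times those in Dsh (101 to 462).

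RPSAP47 (ENSG00000188856) is a single exon of 888 bases at positions 80558870 to 80559757 of chromosome 8. Among the ACHN groups it was near absent in Dsh. Its counts were 1550, 1277 and 1415 in shNC, 594, 676 and 616 in shKDM5C, 821, 1395 and 1589 in shYY1 and 1, 0 and 0 in Dsh libraries. The shYY1 libraries spread widely and overlapped shNC, whereas shKDM5C lay below both. The means were 74.2 ± 6.07 CPM in shNC, 33.8 ± 2.90 in shKDM5C, 68.0 ± 22.7 in shYY1 and 0.0170 ± 0.0294 in Dsh (SD, n = 3). With 1 count in the Dsh group, the ratio of shNC to Dsh counts is poorly fixed, at 4661 with an interval from 836 to 184124. The parent gene RPSA did not share the pattern, with means of 871, 1057, 833 and 1251 CPM in shNC, shKDM5C, shYY1 and Dsh, the highest of them in Dsh. RPSAP47 had 8.52% as many counts as RPSA in shNC and 0.00127% in Dsh libraries.

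The 6 genes are part of a larger number with such a range. Of 10518 genes with a mean over 10 CPM in at least 1 ACHN group, 27 had a mean under 0.5 CPM in another and 55 had one under 1 CPM. Under 0.1 CPM there were 4, of which RPSAP47 and ADAM28 are described here. Among the 27, the lowest group was Dsh for 12, shYY1 for 8, shKDM5C for 6 and shNC for 1, and the highest was Dsh for 11, shYY1 for 8, shNC for 7 and shKDM5C for 1. The plot of highest against lowest group means places VAV3 at the edge of this set and the other 5 well inside it.

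**Figure D1:**
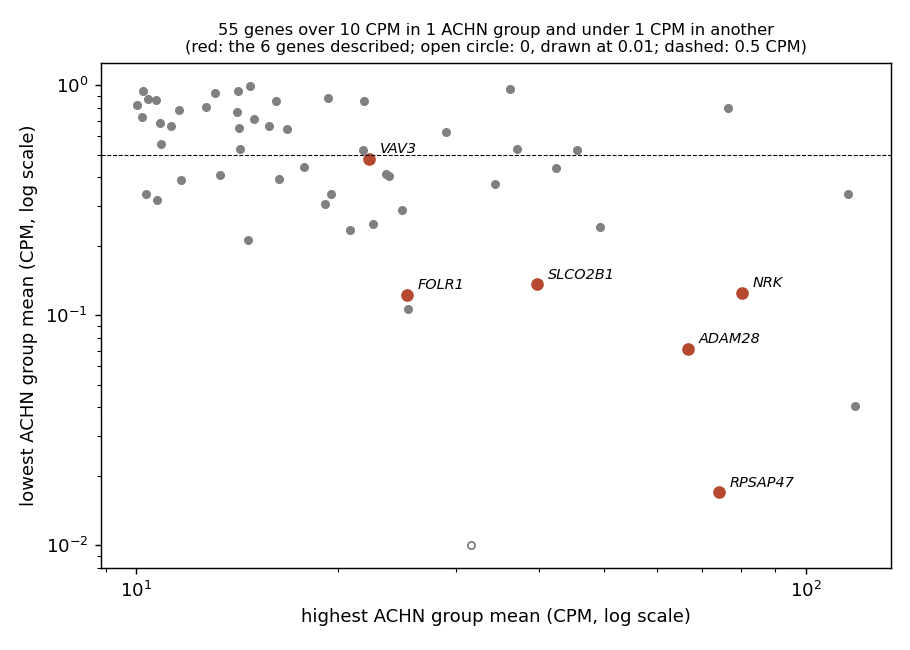
The 55 genes with a mean over 10 CPM in 1 ACHN group (x axis, CPM, log scale) and under 1 CPM in another (y axis, CPM, log scale), with the 6 genes in red and a dashed line at 0.5 CPM. RPSAP47 and ADAM28 are among the lowest points, and VAV3 lies just under the line at 0.479 CPM.

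In HK-2 cells the 6 genes fell apart into 3 that were expressed and 3 that were not. ADAM28 was counted 5, 8 and 2 times in the shNC libraries and 0, 6 and 0 times in shYY1, SLCO2B1 had 0 to 4 counts in each of the 12 libraries, and RPSAP47 had 1 to 7. None of these passed the filter on low counts and none was tested. In the shYY1 group, where ADAM28 and SLCO2B1 were at 66.7 and 39.6 CPM in ACHN cells, both were at or below 6 counts in each HK-2 library. NRK, VAV3 and FOLR1 were abundant in every HK-2 group, with no mean below 20.1 CPM.

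NRK was highest in HK-2 shNC and lowest in Dsh libraries. Its levels were 71.7, 78.9 and 75.2 CPM in shNC, 82.5, 37.2 and 41.4 in shKDM5C, 53.8, 57.4 and 56.1 in shYY1 and 22.0, 19.2 and 19.1 in Dsh. The Dsh libraries lay below all others, and shKDM5C replicate 1 lay above shNC while the rest of its group lay below. NRK fell by 1.90 on the log2 scale in Dsh (SE 0.0757, adjusted p = 3.18e-19, edgeR quasi-likelihood test against shNC, Benjamini-Hochberg adjustment across every gene that passed the filter). It fell by 0.43 in shYY1 (SE 0.0631, adjusted p = 1.67e-05), a group in which ACHN cells had 7 counts in all. In shKDM5C the change was -0.48 (SE 0.300, adjusted p = 0.454), and without replicate 1 of that group it was -0.94 (adjusted p = 4.83e-10). In the fit of all 4 groups together the shYY1 change was -0.43 and did not pass (adjusted p = 0.347).

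VAV3 had its highest levels in HK-2 cells, and per kb of exon it stood below FOLR1 there, at 19.3 against 31.6 CPM per kb in shNC libraries. It was at 131, 140 and 151 CPM in shNC, 193, 163 and 170 in shKDM5C, 100.4, 100.1 and 92.8 in shYY1 and 34.8, 42.6 and 40.1 in Dsh. The groups did not overlap, and shKDM5C was the highest rather than shNC. VAV3 fell by 1.84 on the log2 scale in Dsh (SE 0.0673, adjusted p = 3.9e-20) and by 0.52 in shYY1 (SE 0.0589, adjusted p = 5.09e-07). The shKDM5C difference of 0.32 did not pass (SE 0.122, adjusted p = 0.284), but passed without replicate 1 of that group, at 0.24 (adjusted p = 0.00154).

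FOLR1 stayed between 12.1 and 55.3 CPM in all 12 HK-2 libraries. The values were 43.9, 50.3 and 55.3 CPM in shNC, 12.1, 36.0 and 35.2 in shKDM5C, 43.9, 35.4 and 44.7 in shYY1 and 20.2, 24.1 and 27.4 in Dsh. Dsh and shKDM5C libraries lay below every shNC library, and shYY1 overlapped them. FOLR1 fell by 1.05 on the log2 scale in Dsh (SE 0.0946, adjusted p = 7.42e-11). The shKDM5C difference was -0.84 (SE 0.372, adjusted p = 0.339), and without replicate 1, the lowest library, it was -0.49 and passed (adjusted p = 0.000159). In shYY1 FOLR1 fell by 0.27 (SE 0.0908, adjusted p = 0.0288). The adjusted p was not under 0.05 without shNC replicate 2, shNC replicate 3 or shYY1 replicate 2 (adjusted p = 0.0852, 0.188 and 0.165) and with all 4 groups in the fit (0.713).

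A gene was called where its adjusted p was under 0.05 and its log2 fold change was 1.5 or more in size. By this rule 2 of the 3 tested genes, NRK and VAV3, were called lower in HK-2 Dsh cells and FOLR1 was not, where 4.3% of all genes were called in either direction and 1.84% were called lower. In shYY1 and shKDM5C cells 0 of the 3 genes were called (1.29% and 0.501% of all genes were, in either direction, with edgeR). With any fold change, the adjusted p was under 0.05 for 3 of 3 genes in Dsh, where 49.8% of all genes passed, for 3 of 3 in shYY1, where 29.1% passed, and for 0 of 3 in shKDM5C, where 1.32% passed. Without replicate 1 of shKDM5C, 0 of 3 were called beside 1.38% of all genes, and 3 of 3 had an adjusted p under 0.05, as did 22.3% of all genes. Of the 3, VAV3 alone had an unadjusted p under 0.05 in shKDM5C (edgeR).

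**Figure D2:**
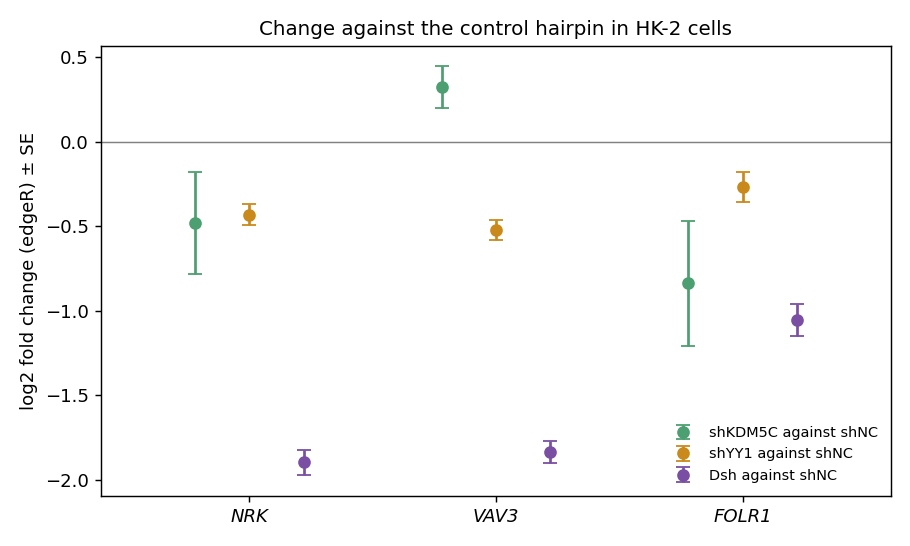
Log2 fold change against shNC in HK-2 cells (y axis, edgeR estimate, bars ± SE) for NRK, VAV3 and FOLR1 in shKDM5C (green), shYY1 (orange) and Dsh (purple) libraries, 3 against 3 in each. The Dsh changes are -1.90, -1.84 and -1.05, and the wide bars in shKDM5C belong to the group whose replicate 1 stood apart.

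The neighbours of the 6 genes were examined to see how far along the chromosome a change extended. All annotated genes within 500 kb were taken, and each was compared in ACHN cells between the groups where the member had its highest and lowest mean. These were 161 genes, 7 of them overlapping the body of a member without sharing exon sequence. Of the 154 outside, 40 had no count in any of the 24 libraries, and 34 passed the filter and were tested. Among these, 3 were called, all in the direction of the member. That is 8.82% of the neighbours tested, beside 8.2% of all genes over the same comparisons, each counted once per member. Taken singly, 9.74% of all genes were called for Dsh against shYY1 (NRK, ADAM28 and SLCO2B1), 3.13% for shYY1 against shNC (VAV3) and 8.42% for Dsh against shNC (FOLR1 and RPSAP47). Within 250 kb, 3 of 22 were called (13.6%), and within 1000 kb, 8 of 76 (10.5%).

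Next to VAV3, NTNG1, which encodes netrin G1, a membrane-anchored protein of the netrin family, lies 87.7 kb away. It was counted 47, 60 and 83 times in ACHN shNC, 87, 105 and 119 in shKDM5C, 5, 8 and 4 in shYY1 and 67, 52 and 60 in Dsh libraries. Like VAV3 it was lowest in shYY1, below all other ACHN libraries, but its highest group was shKDM5C rather than shNC. NTNG1 was 3.45 higher on the log2 scale in shNC than in shYY1 (SE 0.337, adjusted p = 1.52e-10, edgeR). In HK-2 cells it had 84, 87 and 105 counts in shNC and 343, 298 and 317 in Dsh, where VAV3 was at its lowest. On the other side, SLC25A24, a mitochondrial carrier 168.9 kb from VAV3, was at 97.1 CPM in ACHN shNC and 109 in ACHN shYY1 (log2 difference -0.14, SE 0.0425, adjusted p = 0.00537).

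FOLR1 had 14 tested neighbours, of which ANAPC15, a subunit of the anaphase promoting complex 76.8 kb away, was called. ANAPC15 had 252, 231 and 224 counts in ACHN shNC, 252, 264 and 276 in shKDM5C, 173, 185 and 208 in shYY1 and 65, 41 and 74 in Dsh libraries. It was lowest in Dsh, below all other ACHN libraries, while in shKDM5C, where FOLR1 was low, it was not below shNC. In HK-2 cells ANAPC15 had 147, 122 and 147 counts in shNC and 36, 54 and 59 in Dsh libraries. In ACHN cells the log2 difference of ANAPC15 between shNC and Dsh was 2.11 (SE 0.144, adjusted p = 3.24e-10, edgeR). On the other side of FOLR1, INPPL1, an inositol phosphatase 27.4 kb away, was at 331 CPM in shNC and 371 in Dsh (log2 difference -0.17, SE 0.0483, adjusted p = 0.0061), and CLPB, a mitochondrial chaperone, differed by 0.18 (SE 0.0786, adjusted p = 0.0508). The folate receptor gene FOLR3, 49.7 kb away, was low throughout, at 0.595 CPM in shNC and 0.264 in Dsh (log2 difference 1.20, SE 0.477, adjusted p = 0.0362).

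Near ADAM28, an unnamed gene, ENSG00000253891, 117 kb away, had 27, 22 and 22 counts in ACHN shYY1 libraries, 2, 0 and 1 in shNC and none in the shKDM5C, Dsh and HK-2 libraries. It was at least 26.4-fold higher in shYY1 than in Dsh, taking 3 counts over the Dsh group as its floor (adjusted p = 1.24e-06, edgeR). STC1, which encodes the hormone stanniocalcin and lies 439.2 kb away, was at 8.53 CPM in shYY1 and 10.2 in Dsh (log2 difference -0.25, SE 0.109, adjusted p = 0.0552). ADAM7-AS1, which overlaps the ADAM28 body, had 49 counts over the 12 ACHN libraries and none in HK-2.

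No neighbour of SLCO2B1, NRK or RPSAP47 was called. Of 12 tested around SLCO2B1, the nearest at higher coordinates were ENSG00000279117 and ARRB1, which encodes beta-arrestin, and both were higher in shYY1 than in Dsh, by 1.33 (SE 0.182, adjusted p = 6.47e-06) and by 1.08 (SE 0.122, adjusted p = 6.77e-07). At lower coordinates, the sialidase gene NEU3 differed by 0.01 (SE 0.0877, adjusted p = 0.948) and the signal peptidase subunit gene SPCS2 by 0.20 (SE 0.0608, adjusted p = 0.0086). Overlapping the SLCO2B1 body, ENSG00000255395 and OR2AT1P had 23 and 9 counts in ACHN cells, all of them in the shYY1 libraries. Because strand was not used in the counting, such reads cannot be told from unspliced reads of the host gene.

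The neighbourhood of NRK was nearly silent, with 1 of 8 genes outside its body tested, the pseudogene KCTD9P2 at 0.751 to 1.07 CPM in the ACHN groups (log2 difference -0.40 between Dsh and shYY1, SE 0.353, adjusted p = 0.33). Around RPSAP47, ZBTB10, a zinc finger gene 32.6 kb away, was at 20.2 CPM in shNC and 19.9 in Dsh (log2 difference 0.02, SE 0.081, adjusted p = 0.832). TPD52 and PAG1, farther out, differed by 0.41 (SE 0.0608, adjusted p = 1.09e-05) and by -0.71 (SE 0.114, adjusted p = 2.31e-05). The genes overlapping the other members were almost without reads. ENSG00000222161 at NRK had 1 count in ACHN cells, ENSG00000204971 at FOLR1 had 1, and MIR7852 and VAV3-AS1 at VAV3 had none.

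**Figure D3:**
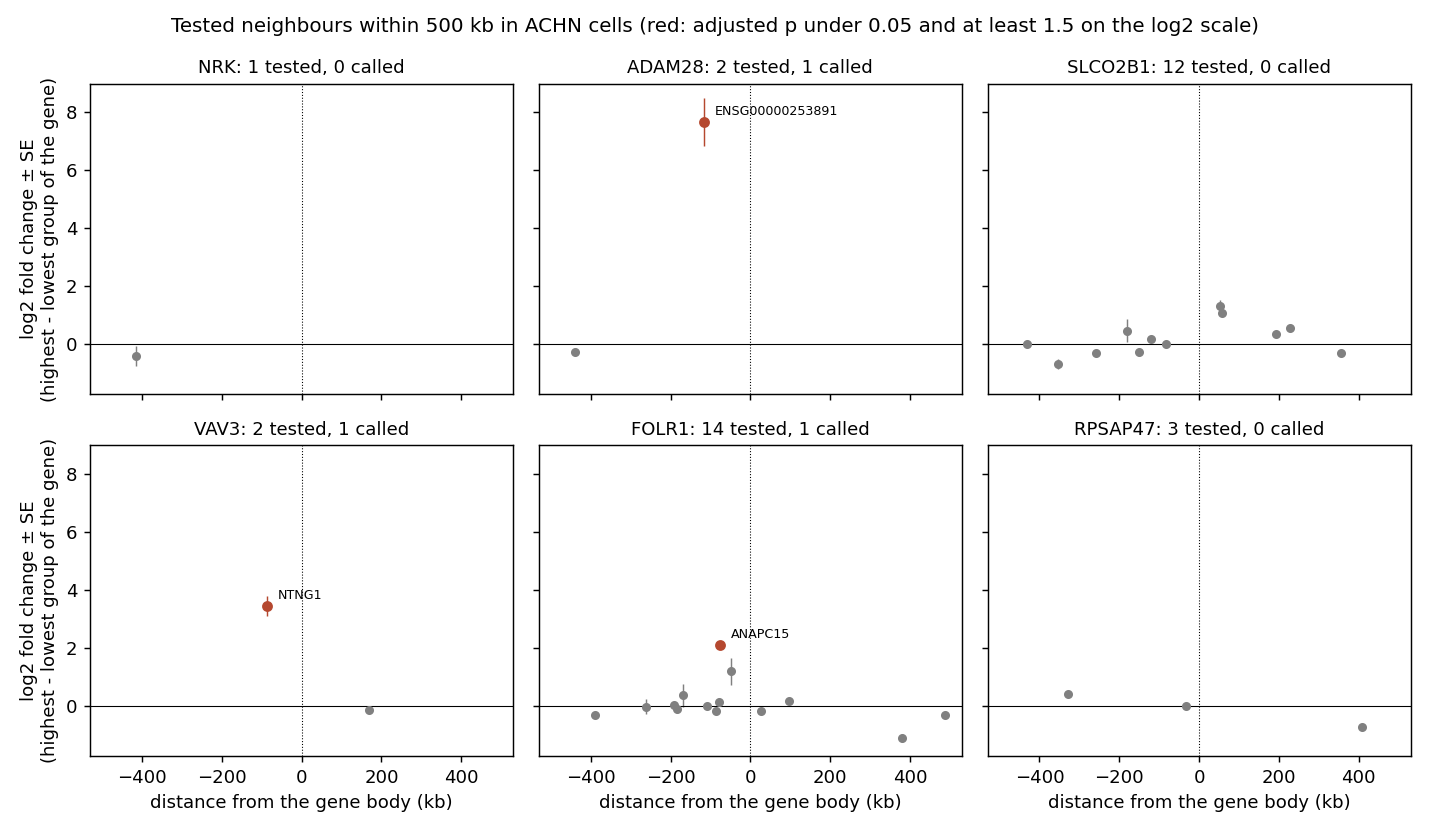
Log2 fold change of each tested neighbour within 500 kb (y axis, highest minus lowest ACHN group of the member, bars ± SE) against its distance from the gene body in kb, with called genes in red. The 3 called genes, ENSG00000253891, NTNG1 and ANAPC15, lie 117, 87.7 and 76.8 kb away, and the other 31 stay under 1.5 in size.

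Genes of the same families and pathways were then examined, 109 genes beside the 6 in lists of transporters, proteases, kinases, exchange factors and folate enzymes. Against ACHN shNC, 2 were called higher and 7 lower of 91 tested in Dsh, beside 2.81% and 5.61% of all genes. In shKDM5C 0 were called higher and 2 lower of 92 (0.667% and 2.68% of all genes), and in shYY1 1 higher and 4 lower of 93 (0.904% and 2.23%).

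Among the SLCO transporters, 0 of 5 other family members tested were called higher in ACHN shYY1 cells and 1 was called lower, beside 0.904% and 2.23% of all genes. SLCO4C1, a kidney transporter, was at 12.7 CPM in ACHN shNC, 3.49 in shKDM5C, 2.64 in shYY1 and 2.39 in Dsh, and it fell by 1.87, 2.29 and 2.42 on the log2 scale (SE 0.128, 0.136 and 0.148, adjusted p = 3.46e-12, 6e-16 and 6.37e-11). In Dsh, SLCO2A1, a prostaglandin transporter, fell by 1.88 (SE 0.213, adjusted p = 3.27e-07) and SLCO4A1 rose by 1.62 (SE 0.114, adjusted p = 4.95e-10). The median log2 difference over the 5 tested SLCO genes was -0.75 in Dsh, beside -0.01 over all genes. SLCO3A1 was between 22.3 and 30.1 CPM and SLCO5A1 under 1 CPM in all ACHN groups.

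Of 13 tested ADAM proteases, 3 were called lower and 0 higher in ACHN Dsh, beside 5.61% and 2.81% of all genes. Their median log2 difference was -0.34, beside -0.01 over all genes. ADAM33, known from airway muscle, had 230, 192 and 171 counts in shNC, 29, 50 and 38 in shKDM5C, 200, 211 and 192 in shYY1 and 7, 2 and 12 in Dsh libraries. The shNC and shYY1 libraries were high and overlapped, and the groups with a KDM5C hairpin were low. ADAM33 is itself among the 27 genes over 10 CPM in 1 ACHN group and under 0.5 CPM in another. ADAM33 fell by 2.31 in shKDM5C (SE 0.171, adjusted p = 1.55e-11) and by 4.94 in Dsh (SE 0.258, adjusted p = 7e-12). ADAM11 fell by 2.32 in Dsh (SE 0.168, adjusted p = 7.87e-10) and ADAM32 by 1.82 (SE 0.359, adjusted p = 0.000214). ADAM21 fell by 1.51 in shYY1, from 1.31 to 0.461 CPM (SE 0.35, adjusted p = 0.000491). The other ADAM genes over 1 CPM, ADAM8, ADAM9, ADAM12, ADAM15, ADAM19, ADAM22 and ADAM23, were not called in ACHN cells. The broadly expressed sheddases ADAM10 and ADAM17 were at 467 and 103 CPM in shNC and 508 and 106 CPM in shYY1, and were not called either.

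Of the VAV family, VAV2 was between 63.3 and 94.5 CPM in ACHN cells and was not called, and VAV1, the blood cell form, had 15, 17 and 21 counts in shNC, 4, 6 and 6 in shYY1 and 2, 3 and 8 in Dsh. VAV1 fell by 1.70 in shYY1 (SE 0.419, adjusted p = 0.000966) and by 2.15 in Dsh (SE 0.476, adjusted p = 0.00067), at low counts in each.

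Among the 20 JNK cascade genes, 19 were tested in shYY1 and in Dsh and 20 in shKDM5C, and 0 were called. Of all genes, 3.13% were called in shYY1, 8.42% in Dsh and 3.34% in shKDM5C. In the folate group, FOLR2 was near absent and FOLR3 was under 1 CPM in every group. Of the transport and one-carbon enzymes, 0 of 22 tested were called in Dsh and 0 of 22 in shKDM5C, beside 8.42% and 3.34% of all genes. In shYY1 1 of 23 was called, beside 3.13% of all genes. This was GLDC of the glycine cleavage system, named after its value was seen, which fell by 2.28 (SE 0.0585, adjusted p = 2.41e-26).

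In HK-2 cells 2 list genes were called higher in Dsh of 85 tested, where 2.45% of all genes were called higher. SLCO1A2 had 0, 2 and 3 counts in shNC and 47, 40 and 56 in Dsh libraries, and rose by 4.84 on the log2 scale (SE 0.553, adjusted p = 1.09e-08). ADAM12 rose by 2.20, from 11.8 to 53.9 CPM (SE 0.098, adjusted p = 4.91e-18). None was called in HK-2 shYY1 (85 tested) or shKDM5C (86 tested) with edgeR. Without shKDM5C replicate 1, 1 of 86 was called there, SLCO1A2, with 19 and 22 counts in the other replicates (log2 fold change 3.51, adjusted p = 0.00133).

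The genes most like each member over the 12 ACHN libraries, by Pearson correlation of log2(CPM + 0.5) among 10512 genes with at least 10 CPM in a group mean, are given next, 3 for each. Of these, TGFB2 and PPME1 lie on the chromosome of their member. These correlations are a description, and the points share their libraries and groups. NRK was most like TBC1D4, a GTPase activating protein of insulin signalling (r = 0.998), at 36.7, 35.3, 7.76 and 36.2 CPM in shNC, shKDM5C, shYY1 and Dsh, followed by NABP1 and TUBA1A (r = 0.995 and 0.990). ADAM28 was most like EBF3, a transcription factor at 15.9, 13.1, 43.4 and 13.3 CPM (r = 0.991), then MDH2 and PIK3AP1. The levels of these genes moved much less than those of NRK and ADAM28, since a correlation does not see the size of a change.

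SLCO2B1 was most like MFGE8, a secreted glycoprotein gene at 78.1, 98.1, 469 and 76.5 CPM (r = 0.991), then LMO4 and EPHA5. EPHA5, an ephrin receptor gene, was itself near absent outside shYY1, with 422, 511 and 495 counts there and 0 to 12 in every other ACHN library. VAV3 was most like FRMD5, TGFB2 and GPAT3 (r = 0.994, 0.993 and 0.991). TGFB2, a growth factor gene, was at 158 CPM in shNC and 112 in Dsh, with its lowest mean in shYY1. FOLR1 was most like PPL, which encodes periplakin of desmosomes (r = 0.990), and then PPME1 and SLFN13. PPME1 was at 574 CPM in shNC and between 261 and 367 in the other groups.

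RPSAP47 was most like RPS23 (r = 0.996), a ribosomal protein gene, and EEF1A1P5 (r = 0.994), a pseudogene of the elongation factor gene EEF1A1, followed by AARS1. RPS23 had 5534, 5305 and 5388 counts in ACHN shNC, 3653, 3890 and 3309 in shKDM5C, 5708, 5488 and 5752 in shYY1 and 276, 225 and 316 in Dsh libraries. RPS23 was lowest in Dsh and lay below shNC in shKDM5C too, as RPSAP47 did, and its HK-2 means were between 89.8 and 169 CPM. EEF1A1P5 was at 356 ± 18.9 CPM in shNC and 104 ± 10.1 in Dsh (SD, n = 3), while EEF1A1 itself was at 7466 ± 118 and 9136 ± 181 CPM.

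Other pseudogenes of RPSA were examined after these values were seen. The tables hold 72 besides RPSAP47, of which 31 had no count in any library. RPSAP15, on chromosome X, was counted 2105, 1983 and 1877 times in ACHN shNC, 2595, 2813 and 2648 in shKDM5C, 1978, 1901 and 1994 in shYY1 and 83, 52 and 55 in Dsh libraries. RPSAP54, on chromosome 13, had 56, 60 and 64 counts in shNC and 5, 0 and 3 in Dsh. Both were low in ACHN Dsh libraries and in HK-2 cells, where RPSAP15 stayed between 18 and 58 counts and RPSAP54 at 2 or fewer. Of the 7 copies besides RPSAP47 with at least 30 counts summed over ACHN shNC, these 2 had a Dsh mean at least 10 times lower, and the other 5 did not. RPSAP19, on chromosome 1, was at 2.55 CPM in ACHN shNC and 1.83 in Dsh, and RPSAP9, RPSAP12, RPSAP52 and RPSAP70 had means of 0.578 to 1.15 CPM in shNC and 0.878 to 1.53 in Dsh, each higher in Dsh. The plot of RPSA and its copies shows RPSAP47 and the 2 lower copies beside RPS23. How reads that match several copies were assigned is not stated beyond the counting options, and whether this bears on the RPSAP47 level was not tested.

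**Figure D4:**
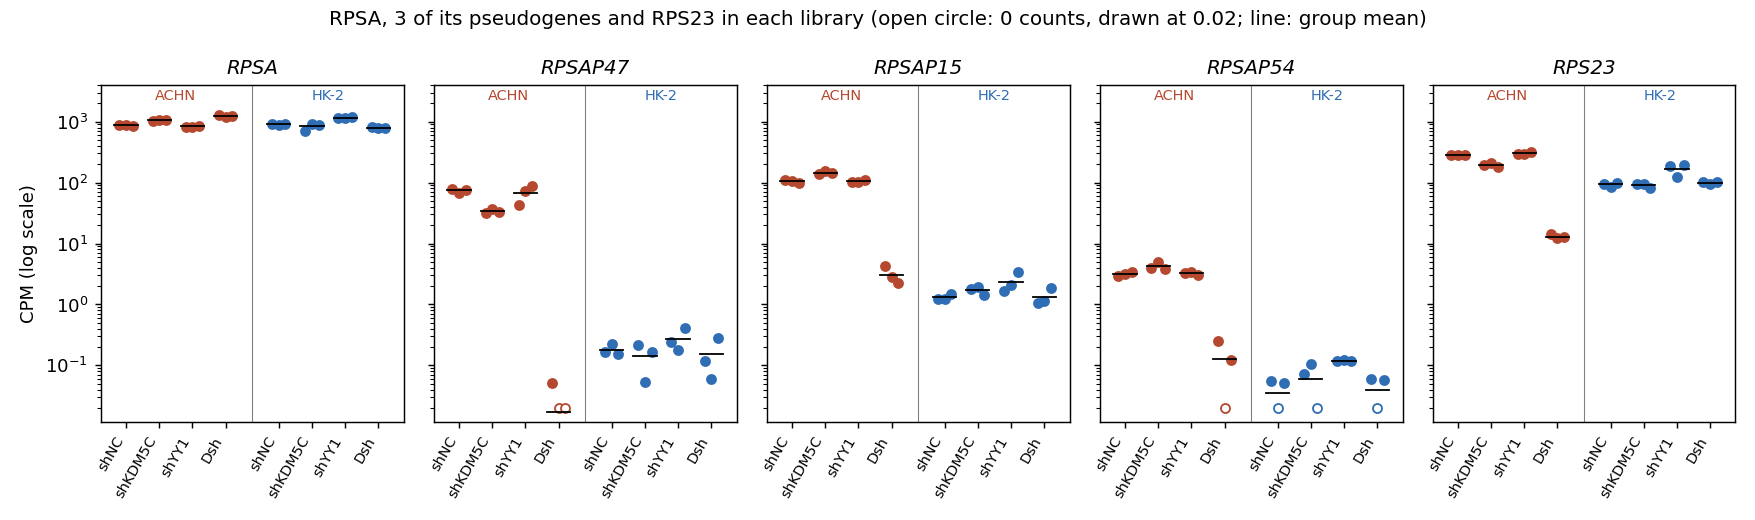
Level in CPM (log scale) of RPSA, its pseudogenes RPSAP47, RPSAP15 and RPSAP54, and RPS23 in each library, ACHN in red and HK-2 in blue, with a line at each group mean and open circles for 0 counts. The 3 pseudogenes and RPS23 are low in the ACHN Dsh group, where RPSA is at its highest, 1251 CPM.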

How the data were processed

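Read counts per gene were analysed for 24 RNA-seq libraries, 12 of ACHN and 12 of HK-2 cells. The deposited counts are raw whole numbers; per the processing notes the authors aligned reads with HISAT2 2.0.5 and counted pairs with featureCounts, given as 1.5.0-p3 there and as 2.0.1 in the file headers, without strand, on Ensembl release 84 (GRCh38). Of 60675 genes, 56558 were matched to a symbol.

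CPM were computed with TMM factors within each cell line. Groups were compared 2 at a time with the quasi-likelihood test of edgeR 4.0.16 (R 4.3.3, filterByExpr, Benjamini-Hochberg adjustment over all genes tested). Ratios of summed counts carry exact 95% counting intervals. With 3 against 3 libraries an exact permutation test of a single gene cannot go below p = 0.1. The fits were tested on simulated counts. Alternatives were DESeq2 1.42.0, other scaling, filters, windows and thresholds, all groups in the fit, a replicate block and each library left out.

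The 6 genes and the lists of 114 genes, 109 besides the 6, were chosen with earlier results of these data known. Named genes are the targeted genes, the 6, genes overlapping them, the nearest 2 tested neighbours on each side and called ones, close family members over 1 CPM, up to 4 further called list genes per list in Dsh, and the 3 likest genes; GLDC, EEF1A1 and the RPSA pseudogenes were added after their values were seen. Some genes and 2 of the lists are not reported here.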

Additional observations from a re-analysis of the deposited data

Results flagged for a closer look

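Values are listed here where every knockdown library of a gene lay on one side of shNC in ACHN cells and on the other side in HK-2 cells. The differences between the cell lines were not tested, and some of the values are small. The share of all genes that meet this rule is not given here, so the list does not show that the 2 lines respond in opposite ways more than other genes do. For the genes described, the log2 fold change of NRK in Dsh against shNC was 0.23 in ACHN and -1.90 in HK-2 cells, and that of VAV3 in shKDM5C was -0.70 in ACHN and 0.32 in HK-2 cells.

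Of their neighbours, NTNG1 beside VAV3 had -3.45 in ACHN and 0.20 in HK-2 shYY1 cells, and ENSG00000279117 beside SLCO2B1 had 0.75 and -1.20 there. ARRB1, on the same side of SLCO2B1, had -0.86 in ACHN and 0.20 in HK-2 Dsh cells, and NEU3 had 0.19 and -0.21 in shKDM5C. Beside FOLR1, ANAPC15 had -0.32 and 0.23 and CLPB had 0.21 and -0.28 in shYY1, and INPPL1 had 0.17 and -0.17 in Dsh. Beside RPSAP47, TPD52 had -0.41 and 0.14 in Dsh, and PAG1 had 0.44 and -0.53 in shYY1 and 0.71 and -0.98 in Dsh.

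Of the list genes, SLCO4C1 in shKDM5C had -1.87 in ACHN and 1.06 in HK-2 cells, and SLCO4A1 had 0.40 and -0.37. GLDC had -2.28 and 0.31 in shYY1 and 0.43 and -1.18 in Dsh. SLCO3A1 had 0.12 and -0.34 in shYY1 and 0.37 and -0.35 in Dsh, VAV2 had 0.31 and -0.23 in shYY1, and ADAM9 had -0.24 and 0.44 there. ADAM8 had 0.70 and -0.79 in shKDM5C and 1.16 and -0.65 in Dsh. RPSA, the parent of RPSAP47, had -0.08 and 0.36 in shYY1 and 0.52 and -0.18 in Dsh.

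Of the genes with patterns most like those of the members, NABP1 had 0.05 in ACHN and -0.22 in HK-2 Dsh cells, FRMD5 had -0.62 and 0.52, and EEF1A1P5 had -1.78 and 0.24 there. GPAT3 had -0.61 and 0.46 in shKDM5C and -1.05 and 0.55 in Dsh, and PPME1 had -0.65 and 0.38 in shKDM5C. PIK3AP1 had 0.78 and -0.76 in shYY1. AARS1 had -0.07 and 0.31 in shYY1 and -0.69 and 0.89 in Dsh, and EEF1A1 had -0.10 and 0.45 in shYY1.

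The HK-2 values for shKDM5C include the replicate 1 that stood apart. Without it they were 0.24 for VAV3, -0.14 for NEU3, -0.13 for SLCO4A1, 0.75 for SLCO4C1, -0.47 for ADAM8, 0.48 for GPAT3 and 0.33 for PPME1.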

How the results depend on the processing

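All 6 genes kept a highest ACHN group mean over 10 CPM and a lowest under 0.5 CPM under each of 3 other scalings, and 2 of the 6 (RPSAP47 and ADAM28) had a lowest mean under 0.1 CPM. Leaving out 1 library gave 5 to 6, with VAV3 past the limit without shYY1 replicate 1 or 3. The neighbours called were 3 in 500 kb and 8 in 1000 kb, and 3 to 4 with a library left out. For HK-2 shKDM5C the number of genes called depended on the setting and was 81 as reported, 170 with DESeq2, 124 with no filter on low counts, 187 with all 4 groups in the fit and 240 at an unadjusted p, and 0 to 230 with a library left out, 230 being the number without its replicate 1. Without the filter, ACHN calls went from 541 to 936 in shKDM5C, from 513 to 797 in shYY1 and from 1385 to 2240 in Dsh, more genes being tested. List genes called in HK-2 cells were 2, and 4 with DESeq2, with no filter and with all 4 groups, and 2 to 3 with a library left out. Leaving out a library gave 15 to 19 list genes in ACHN cells (16 as reported). Calls in HK-2 were 192 to 258 in shYY1 and 801 to 832 in Dsh (208 and 697 with all libraries). Calls in ACHN shKDM5C, shYY1 and Dsh were 602 to 666, 552 to 590 and 1523 to 1588 (541, 513 and 1385 with all libraries). The ranges for HK-2 Dsh and the ACHN groups lie above the counts with all libraries. The filter was run again each time, and in HK-2 shKDM5C 16642 genes were tested without replicate 1 against 16161 with it. Of the values of single genes, 1020 stayed on the same side of the threshold, 25 were newly past it, 35 were no longer past it and 12 changed sign, none of the 12 past the threshold in either setting. NEU3 (Dsh minus shYY1 in ACHN) went from -0.01 to 0.0393 with total counts and lay between -0.0850 and 0.0620 with a library left out, and ZBTB10 (Dsh minus shNC) lay between -0.0595 and 0.00876. With a library left out, SLCO2A1 in ACHN shKDM5C lay between -0.0305 and 0.17, ADAM33 in ACHN shYY1 between -0.0582 and 0.14, ADAM21 in ACHN shKDM5C between -0.0636 and 0.32, and ADAM12 in HK-2 shKDM5C between -0.0281 and 0.40. The cause of these changes was not tested.

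Same-numbered libraries did not deviate together across genes (correlations from -0.146 to 0.0552 in 27 pairs), and the numbers were not used as pairs in the main fits. A shared deviation that is small or limited to a few genes would not show in these correlations. With the replicate number as a block, HK-2 shKDM5C calls were 0, and the other counts stayed within 1.5 times.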

Other observations

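Other genes with the same range of levels in ACHN cells were listed by group means alone, so their values are a description with no test. VCAM1, which encodes a cell adhesion protein, was at 31.6 CPM in Dsh and had 0 counts in all shYY1 libraries. CCND2, a D-type cyclin gene, was at 20.9 CPM in Dsh and 0.235 in shKDM5C, and SIGLEC15, a sialic acid receptor gene, was at 49.3 CPM in Dsh and 0.242 in shNC. HOXA7, a homeobox gene, was highest in shKDM5C, at 34.3 CPM, and lowest in shYY1, at 0.373. The long non-coding RNA LINC03061 was at 118 CPM in shYY1 and 0.0403 in Dsh. These genes were picked from the 27 after their values were seen.

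Of the 27 genes with a highest ACHN group mean over 10 CPM and a lowest under 0.5 CPM, 16 had a mean over 10 CPM in some HK-2 group and 8 stayed under 1 CPM in every HK-2 group.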
